A study of Mus musculus with 18 samples.

Results

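Transient GATA6-only promoters are the GATA6 binding regions that the transcription factor occupied for a limited time, at which no peak of SOX17 or of the PTFs (pluripotency transcription factors, here OCT4, SOX2 and ESRRB) was called, and which carried the histone marks of a promoter in embryonic stem (ES) cells. They were chosen by 4 deposited classes, namely the Transient cluster of GATA6 dynamics, no PTF, no SOX17 and the promoter histone state. Of the 42403 regions in the deposited table, 700 met the rule. The series itself holds 18 MNase-seq libraries, which map nucleosomes, in 6 groups of 3 replicates. The Transient cluster comes from the authors' k-means clustering of GATA6 ChIP-seq signal over the time course, so GATA6 dynamics, the other factors' peaks and the histone state are what chose the members and are not results. The groups were KH2 mouse ES cells without Dox (d0) and after 8, 16, 24, 48 and 96 h of doxycycline (Dox). All 6 groups carried the same Dox-inducible GATA6 transgene in a C57BL/6 x 129/Sv background and were kept with LIF on mouse embryonic fibroblast feeders. The cells descend from picked antibiotic-resistant clones, GATA6 comes from an ectopic transgene, and feeder cells were present in culture. No MNase value entered the columns used here, so nucleosome signal was not analysed here, and the table gives no read depth for a region or a class.

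GATA6 is a zinc-finger factor of the GATA family that recognises short GATA-containing motifs and can engage nucleosomal DNA, and it drives the differentiation of ES cells into primitive endoderm (PrE). OCT4 and SOX2 bind a composite motif and maintain pluripotency together with the nuclear receptor ESRRB, whereas SOX17 is an endoderm factor that follows GATA6. Promoters of mammalian genes often lie in GC-rich, CpG-rich DNA that is open in many cell types, a different setting from the AT-richer distal elements at which GATA factors mostly bind.

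The sequences of 8 of these promoters show the range of motifs found in them. They are given 5′ to 3′ on the plus strand of mm10, from RefSeq's GRCm38.p6, as stretches of 151 bp around the summit (where GATA6 signal was highest), or around the best GATA6 motif where the motif lay further away. Capitals mark the best GATA6 motif of the deposited table, which is 13 bp long and reads as its reverse complement (TTATCT in place of AGATAA) where it lies on the minus strand. Arhgap5 (a GTPase-activating protein) and Nme2 (a nucleoside diphosphate kinase) had the highest scores, Uaca and Psmc6 (a proteasome ATPase) were accessible at d0, Fastkd2 (a mitochondrial RNA-binding protein) was the top scorer among the closed members, Klf10 (a zinc-finger factor) belonged to the class with decreased GATA6 binding on Oct4 knockdown, Tet1 (a 5-methylcytosine dioxygenase) had a weak motif, and Tpd52 had none.

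Arhgap5 (chr12:52504830-52504980): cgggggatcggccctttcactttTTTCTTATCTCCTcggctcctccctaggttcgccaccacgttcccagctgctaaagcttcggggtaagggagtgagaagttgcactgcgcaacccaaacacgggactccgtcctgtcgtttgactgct
Nme2 (chr11:93954874-93955024): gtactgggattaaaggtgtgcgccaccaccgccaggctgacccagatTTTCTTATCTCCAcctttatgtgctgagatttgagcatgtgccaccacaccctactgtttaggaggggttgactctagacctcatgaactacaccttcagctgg
Uaca (chr9:60794146-60794296): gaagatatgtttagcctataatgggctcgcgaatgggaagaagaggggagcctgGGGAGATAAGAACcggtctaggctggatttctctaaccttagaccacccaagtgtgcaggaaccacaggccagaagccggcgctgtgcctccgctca
Psmc6 (chr14:45329850-45330000): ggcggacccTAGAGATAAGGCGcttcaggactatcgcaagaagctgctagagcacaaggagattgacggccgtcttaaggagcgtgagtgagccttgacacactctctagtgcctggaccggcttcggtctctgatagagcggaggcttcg
Fastkd2 (chr1:63731027-63731177): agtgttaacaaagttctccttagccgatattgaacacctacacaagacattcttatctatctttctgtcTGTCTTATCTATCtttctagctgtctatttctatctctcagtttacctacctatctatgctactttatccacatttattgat
Klf10 (chr15:38301956-38302106): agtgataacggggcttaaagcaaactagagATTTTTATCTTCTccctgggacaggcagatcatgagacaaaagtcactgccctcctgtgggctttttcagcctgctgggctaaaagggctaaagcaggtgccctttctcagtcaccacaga
Tet1 (chr10:62887845-62887995): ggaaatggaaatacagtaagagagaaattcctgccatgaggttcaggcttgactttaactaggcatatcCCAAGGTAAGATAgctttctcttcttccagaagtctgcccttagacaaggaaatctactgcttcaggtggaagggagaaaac
Tpd52 (chr3:9003796-9003946): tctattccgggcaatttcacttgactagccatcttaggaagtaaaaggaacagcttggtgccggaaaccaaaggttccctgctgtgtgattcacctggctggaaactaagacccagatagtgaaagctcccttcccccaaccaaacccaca

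The members were labelled promoters from histone marks and not from gene annotation, so the label was checked against GENCODE release M21 (also mm10). The summit lay within 1 kb of an annotated transcript start in 463 of the 700 members (66.1%, 95% Wilson interval 62.6 to 69.6), and within 1 kb of a protein-coding start in 57.6% (53.9 to 61.2). The median distance was 439 bp, with quartiles of 145 and 1878 bp. The promoter label was therefore met by the annotation in most members but not in the remaining 237, of which 169 lay up to 10 kb from a start and 68 lay farther away. Across all GATA6 regions, 12.4% of summits were within 1 kb of a start.

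For comparison, 3 other sets that each differ from the members in 1 class were used. The first was 238 Transient promoters with PTF peaks from d0, the second 311 Late promoters without PTF or SOX17, and the third 882 Transient active enhancers without PTF or SOX17. The columns used give 1 value or class for a region and none for a replicate, so no test was run. Intervals of shares and of their differences (95% Newcombe intervals, in percentage points) cover counting error among regions only, and neighbouring regions are not independent, so the number of chromosomes with the same direction is given beside differences between these sets, other than those of short motifs and those within subsets. The members were nearer to starts than the PTF promoters, of which 45.4% were within 1 kb (difference 20.8 points, 13.5 to 27.8, 18 of 20 chromosomes), and farther than the Late promoters, of which 85.5% were (difference -19.4 points, -24.4 to -13.9, 20 of 20). The share in active enhancers was 14.2% (difference 52.0 points, 47.6 to 56.0, 20 of 20).

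**Figure D1:**
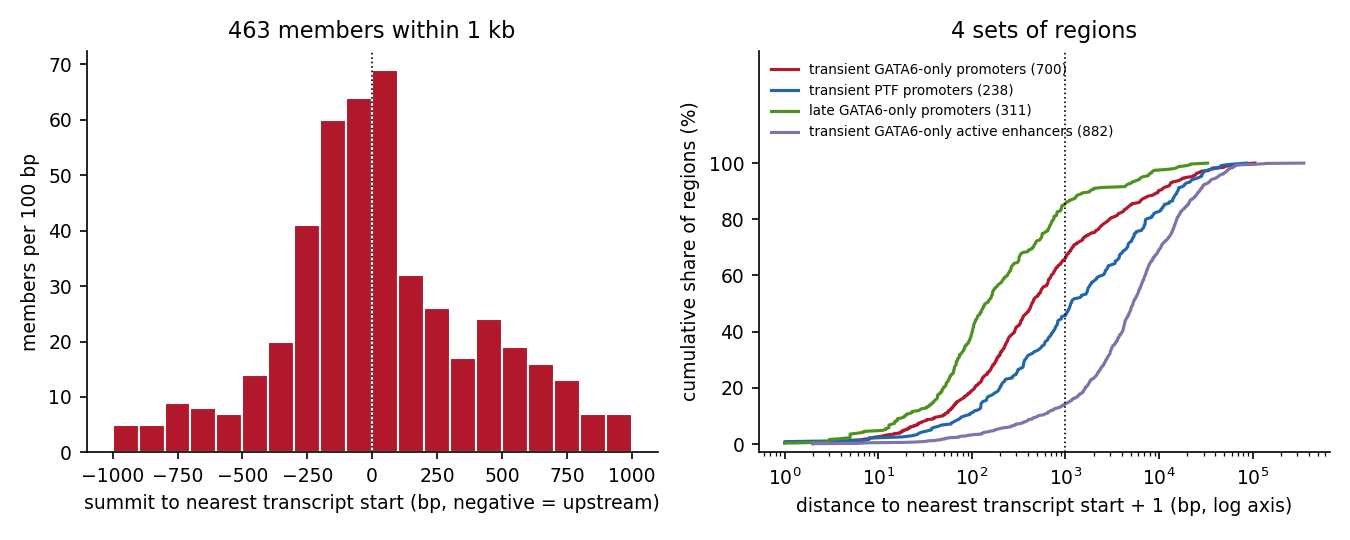
Left, position of the summit relative to the nearest transcript start for the 463 members within 1 kb, in bins of 100 bp with negative values upstream. Right, cumulative share of regions by distance to the nearest transcript start (log axis, 1 bp added) in the 4 sets, with a dotted line at 1 kb. The members lie between the Late promoters and the PTF promoters, whose medians differ (439 bp in the members, 1152 bp in the PTF promoters).

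Among the 463 members within 1 kb, summits were spread over both sides of the start. They lay upstream in 50.3% (45.8 to 54.9) and within 250 bp of it in 57.7%. In the 391 of them with a GATA6 motif, the best motif lay upstream of the start in 49.4% and on the strand of the gene in 46.8%. Summits and motifs were thus about as frequent on either side of the start and in either orientation. Over all GATA6 regions within 1 kb of a start, the upstream share of summits was higher, at 59.3% (57.9 to 60.6). It was 63.2% in active enhancers (difference -12.9 points, -22.02 to -3.04, 13 of 19 chromosomes). In PTF promoters it was 58.3% (difference -8.01 points, -17.96 to 2.45, 13 of 20). Late promoters had 56.4% (difference -6.07 points, -13.5 to 1.46, 13 of 20). The members within 1 kb touched 542 annotated genes, of which 463 were protein-coding, 28 antisense and 20 lincRNA genes. At 35 members, protein-coding genes started on both strands, as at divergent promoters, and 10 protein-coding genes had 2 or more members.

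The DNA under the summits was GC-rich. In windows reaching 100 bp to each side of the summit, the median GC content was 55.7% in the members, 50.7% in PTF promoters, 55.2% in Late promoters and 50.2% in active enhancers, against 45.3% over all regions. The observed to expected ratio of CpG dinucleotides, which is high in CpG islands, had a median of 0.52 in the members. It was lower in PTF promoters (0.33) and active enhancers (0.21) and higher in Late promoters (0.68). The mean difference in this ratio was 0.158 against PTF promoters (0.120 to 0.195) and -0.145 against Late promoters (-0.180 to -0.110), each in the same direction on 19 of 20 chromosomes. Members within 1 kb of a start had a higher median ratio (0.61) than those farther away (0.36).

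Most members were neither closed nor fully accessible before GATA6 was induced. The authors' accessibility class at d0, from ATAC-seq in untreated cells, was moderate in 444 members (63.4%, 59.8 to 66.9), accessible in 247 (35.3%, 31.8 to 38.9) and closed in 9 (1.29%, 0.678 to 2.43). Closed regions made up 61.3% of all GATA6 regions. The sources used here do not settle whether a measure of open chromatin entered the clustering behind the histone states, so accessibility may be tied to the promoter state that chose the members, above all where it is compared with active enhancers or all regions. The accessible share was lower than in PTF promoters (62.2%, difference -26.9 points, -33.8 to -19.6, 18 of 20 chromosomes) and in Late promoters (56.9%, difference -21.6 points, -28.0 to -15.0, 19 of 20). It was higher than in active enhancers (12.7%, difference 22.6 points, 18.4 to 26.7, 19 of 20). With moderate counted as open too, the share was 98.7% in the members and the difference from the other promoters was lost.

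A GATA6 motif was found in 599 of the 700 members (85.6%, 82.8 to 88.0), against 89.7% over all GATA6 regions. The share was similar to that of active enhancers (88.3%, difference -2.75 points, -6.16 to 0.572, 12 of 20 chromosomes) and higher than in Late promoters (56.9%, difference 28.7 points, 22.6 to 34.7, 20 of 20 chromosomes). Against PTF promoters (77.3%) the difference was 8.26 points (2.65 to 14.5, 13 of 20). That last difference shrank to 2.97 points (-4.19 to 11.9) among summits within 1 kb of a start, and was 19.6 points among regions with widths in the interquartile range of the members. Over all GATA6 regions 66.5% had 2 or more motifs. Of the members, 270 had 1 motif and 329 had 2 or more (47%, 43.3 to 50.7). The highest number, 8, was found in a member 24408 bp upstream of Myh9, which encodes a non-muscle myosin heavy chain. The members differed in width (median 492.5 bp) from PTF promoters (707.5 bp) and Late promoters (355 bp), and wider regions offer more sequence for a motif. Per kb of region the mean was 3.15 motifs (SD 2.25), compared with 2.26 in PTF promoters, 2.27 in Late promoters and 3.40 in active enhancers. Over all GATA6 regions it was 4.33.

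**Figure D2:**
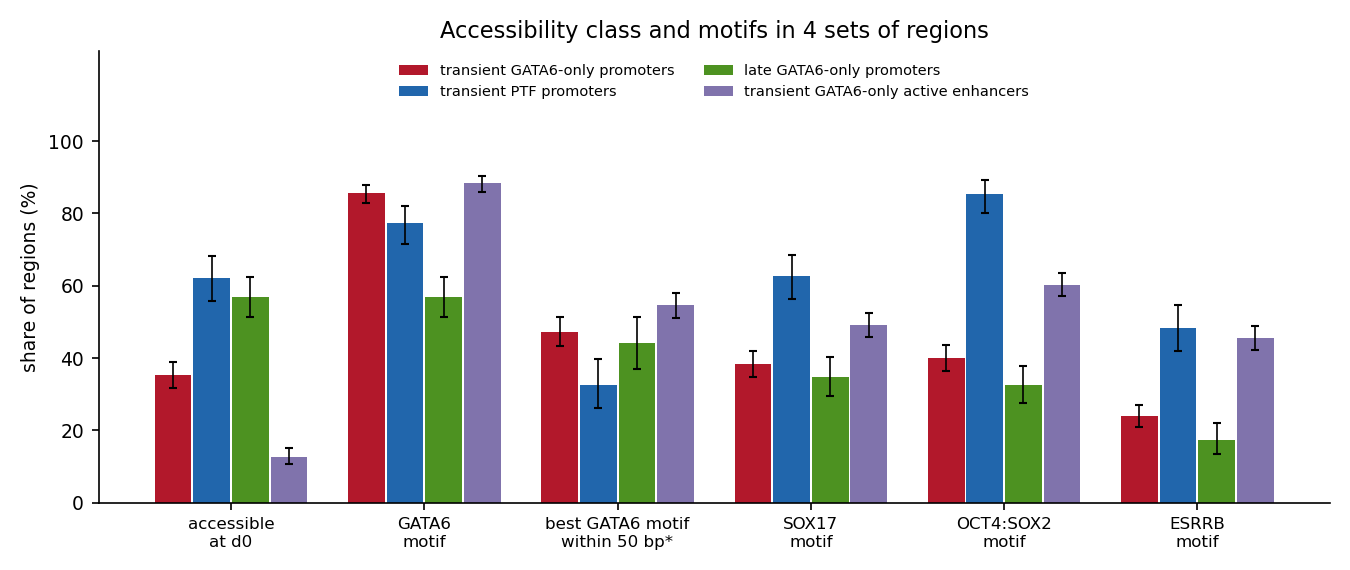
Share of regions (%) in the accessible class at d0 and with each motif in the members (700), Transient PTF promoters (238), Late promoters (311) and Transient active enhancers (882), with 95% Wilson intervals. The asterisk marks a share of regions with a GATA6 motif only. The members have the GATA6 motif about as often as the active enhancers (85.6% and 88.3%) and the PTF motifs far less often than the PTF promoters.

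The best GATA6 motif of a region carries the highest log-odds match score to the GATA6 matrix. In the 599 members with a motif, this score ran from 6.23 to 15.06 with a median of 9.69 and a mean of 10.16 (SD 2.397). The mean was close to that of active enhancers (10.16, difference -0.0037, -0.26 to 0.25, 10 of 20 chromosomes) and exceeded those of PTF promoters (9.50, difference 0.66, 0.28 to 1.04, 17 of 20 chromosomes) and Late promoters (8.95, difference 1.21, 0.85 to 1.57, 17 of 20). Over all GATA6 regions with a motif the mean was 10.47, above that of the members. Scores from 12 up to 14 were found in 129 members and higher ones in 40, and scores below 8 in 136 (22.7%). In Late promoters 40.1% of best motifs scored below 8.

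Among the 595 best motifs that spanned the whole matrix, the core AGATAA was present in 351 (59.0%, 54.99 to 62.9) and the 4 letters GATA in 492 (82.7%, 79.4 to 85.5). The corresponding shares were 42.1% and 64.5% in PTF promoters and 40.0% and 66.5% in Late promoters, but 55.6% and 81.3% in active enhancers. Over all GATA6 regions they were 60.2% and 83.3%. By position along the motif, G at position 5 was found in 99.8% of the members, A at position 6 in 97.5%, T at position 7 in 92.1% and A at position 8 in 92.8%. Outside positions 4 to 10, the most frequent base reached at most 41.2%. The motifs of the 10 members with the highest scores are shown next on the strand of the motif, named by the gene with the nearest transcript start, with the core AGATAA in capitals. They share the core and the letters GA that follow it, and differ at both ends. They were picked by their score against the GATA6 matrix, so the shared letters follow from that choice.

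Arhgap5: aggAGATAAgaaa
Nme2: tggAGATAAgaaa
Bdh1: tacAGATAAgaaa
Dubr: gggAGATAAgagg
Tmx4: ggcAGATAAgagg
Syt9: ctcAGATAAgaaa
Uaca: gggAGATAAgaac
Ybx3: ttgAGATAAgaaa
Gm25696: gagAGATAAgaac
Ctxn1: aagAGATAAgagg

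The scores of these 10 motifs lay between 14.58 and 15.06. Tmx4 (a thioredoxin-related membrane protein) and Uaca were the 2 in the accessible class, and the other 8 were moderate. The summit was 51 bp upstream of the start of Tmx4 and 321 bp upstream of that of Uaca, both outside the annotated gene. It was in an intron 563 bp into Arhgap5, in an intron 834 bp into Nme2, in an intron 1495 bp into Ybx3, which encodes a cold-shock domain protein, and in an annotated UTR 1225 bp into Ctxn1. Syt9, which encodes a synaptotagmin, had the summit 428 bp upstream of its start. The lincRNA gene Dubr had it 199 bp upstream. Bdh1, an enzyme of ketone body metabolism, and the small RNA gene Gm25696 had it 2132 bp and 2832 bp away, between genes. The nearest protein-coding transcript start was 24157 bp from the summit at Bdh1. High scores were therefore found on both sides of starts and away from them.

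The motif lay close to where GATA6 signal peaked. Of the members with a motif, 47.2% (43.3 to 51.2) had the best one within 50 bp of the summit and 74.5% within 100 bp. Over all GATA6 regions with a motif, the share within 50 bp was similar (49.97%, 49.5 to 50.5), so this closeness was not particular to the members. The share of the members within 50 bp was higher than in PTF promoters (32.6%, difference 14.6 points, 6.53 to 22.1, 16 of 20 chromosomes). It was lower than in active enhancers (54.6%, difference -7.31 points, -12.6 to -1.99, 15 of 20), and this difference was not seen within 100 bp. Late promoters had 44.1%, a difference of 3.18 points (-5.19 to 11.3, 12 of 20). In the top scorers the middle of the motif was 46 bp from the summit in Arhgap5, 22 bp in Nme2, 15 bp in Uaca and 9 bp at Gm25696, but 191 bp at Dubr.

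**Figure D3:**
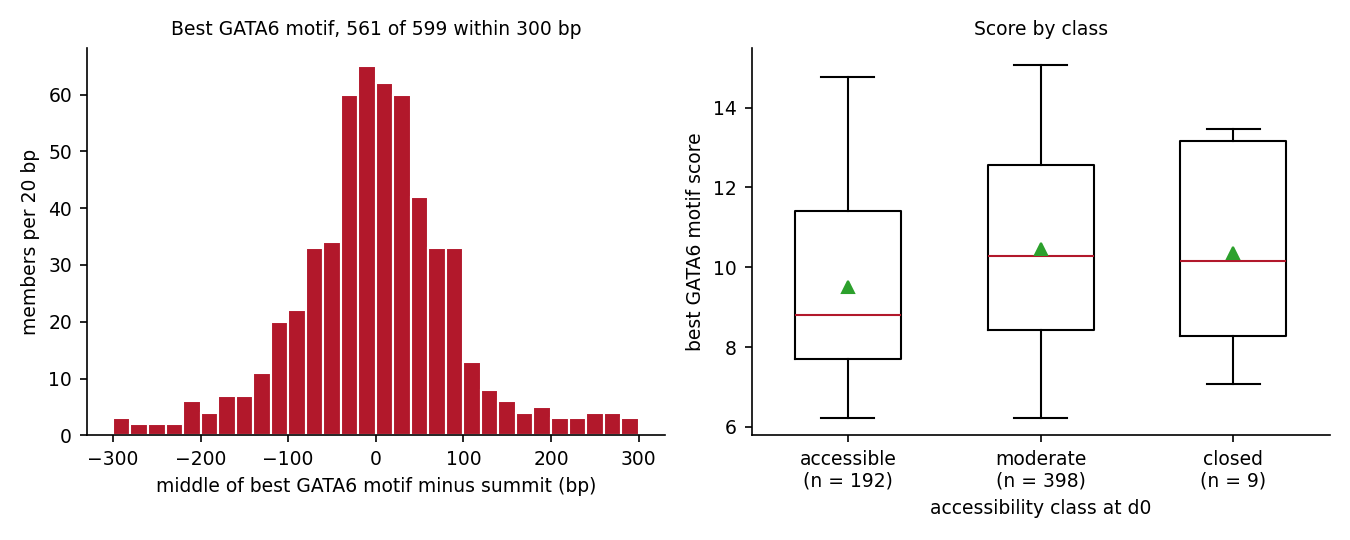
Left, distance from the summit to the middle of the best GATA6 motif in bins of 20 bp, for the 561 of 599 members within 300 bp. Right, best GATA6 motif score by accessibility class at d0, with boxes for the quartiles, red lines for medians, triangles for means and whiskers for the full range. Motifs gather at the summit, and the median score is 8.81 in accessible and 10.29 in moderate members.

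Accessible and moderate members differed in their motifs. A GATA6 motif was present in 77.7% of the accessible members (72.1 to 82.5) and 89.6% of the moderate ones (86.5 to 92.1), a difference of 11.9 points (6.20 to 18.03, 16 of 19 chromosomes). The mean best score was 9.51 (SD 2.27) in accessible and 10.47 (SD 2.397) in moderate members, a difference of 0.96 (0.56 to 1.36, 17 of 19). All 9 closed members had a motif, with a mean score of 10.37. The accessible members were also nearer to starts, with 75.3% within 1 kb against 61.3%. Among members, the distance to a start itself made no clear difference to the motif, which was present in 84.4% within 1 kb and 87.8% beyond it (difference -3.31 points, -8.38 to 2.34).

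Base composition moved with both measures. From the lowest to the highest GC quartile group, the accessible share was 14.5%, 26.7%, 43.8% and 58.9%, whereas the share with a GATA6 motif was 90.5%, 90.6%, 85.2% and 75%. Among the members above the median GC content, moderate members still had the motif more often than accessible ones (87.5% against 72.9%, difference 14.6 points, 5.98 to 22.9). At or below the median the shares were 90.8% and 88.3% (difference 2.53 points, -4.15 to 12.02). Above the same GC content, the motif was present in 80.0% of the members, 76.0% of PTF promoters, 44.6% of Late promoters and 83.3% of active enhancers. The part that base composition has in the differences between accessibility classes was not tested further.

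**Figure D4:**
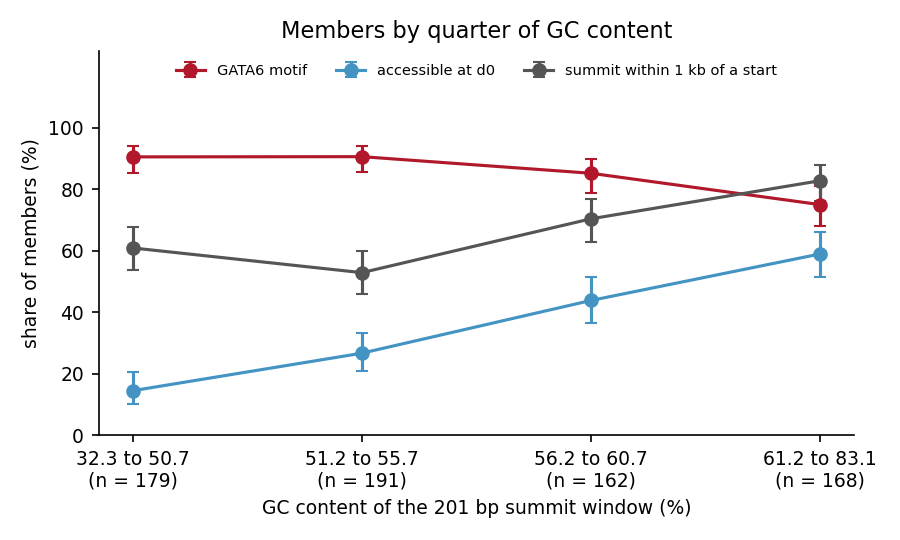
Share of members (%) with a GATA6 motif, in the accessible class at d0 and with the summit within 1 kb of a transcript start, by quartile group of the GC content around the summit (100 bp to each side), with 95% Wilson intervals. The accessible share is 14.5% in the lowest and 58.9% in the highest group, and the motif share 90.5% and 75%.

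Motifs of the other factors were less frequent in the members than among GATA6 regions at large. An OCT4:SOX2 motif was present in 280 members (40.0%, 36.4 to 43.7), a SOX17 motif in 269 (38.4%, 34.9 to 42.1) and an ESRRB motif in 167 (23.9%, 20.8 to 27.2). Over all GATA6 regions the shares were 71.5%, 69.2% and 36.3%. These include regions with PTF or SOX17 peaks, which the members lack by definition. The lower shares in the members are therefore tied to the rule that chose them. Against PTF promoters the differences were -45.3 points for OCT4:SOX2 (-50.6 to -39.0, 20 of 20 chromosomes), -24.2 for SOX17 (-31.1 to -16.9, 19 of 20) and -24.5 for ESRRB (-31.5 to -17.4, 18 of 20). The PTF class itself rests on peaks of OCT4, SOX2 and ESRRB, so the first and last of these are tied to the class that separates the sets. Whether the SOX17 motif difference is tied to that class too was not tested. Among regions with widths in the interquartile range of the members, the SOX17 difference was -12.7 points (-23.8 to -1.52). Against active enhancers, which share the absence of PTF and SOX17 peaks with the members, the differences were -20.3, -10.8 and -21.6 points, in the same direction on 17 or more chromosomes. Against Late promoters the members had OCT4:SOX2 motifs (difference 7.52 points, 1.06 to 13.7, 17 of 20 chromosomes) and ESRRB motifs (6.49 points, 0.996 to 11.5, 13 of 20) somewhat more often, but not where only motifs within 100 bp of the summit were counted (-1.58 and -0.753 points). For SOX17 motifs the difference from Late promoters was 3.70 points (-2.79 to 9.96, 9 of 20). Within 100 bp of the summit, SOX17 motifs were less frequent in the members (-10.1 points, -15.5 to -5.04). Where an OCT4:SOX2 motif was present, its mean best score was 7.52 (SD 2.14) in the members, 10.49 in PTF promoters and 8.26 in active enhancers.

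Of the members, 193 (27.6%, 24.4 to 31.0) held a GATA6 motif and none of the other 3, against 4.20% of PTF promoters (difference 23.4 points, 18.7 to 27.3, 20 of 20 chromosomes), 18.3% of Late promoters (9.24 points, 3.59 to 14.4, 17 of 20) and 12.2% of active enhancers (15.3 points, 11.4 to 19.3, 19 of 20). Over all GATA6 regions, which include those with PTF or SOX17 peaks, the share was 7.49%. The PTF class rests on peaks of these factors, so the difference from PTF promoters is tied to that class. PTF promoters are also wider than the members, and the part of width was not tested. A GATA6 motif alone was the most frequent combination in the members, followed by GATA6 with OCT4:SOX2 in 14.4%. In 52 members all 4 motifs were present, and in 53 none. A further 48 members had no GATA6 motif but 1 or more of the other 3.

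Short motifs of common promoter factors were counted in the same summit windows on both strands. Beside the core AGATAA, these were the GC box GGGCGG (the SP and KLF factors), CCAAT (NFY), the ETS core CCGGAAG, the NRF1 core TGCGCATG, the E-box CACGTG, the YY1 core AAGATGG, the CRE TGACGTCA and TATAAA. A match is a run of letters and not evidence of binding. AGATAA was present in 314 summit windows (44.9%, 41.2 to 48.6) but in 10.1% of 1334 control windows placed 3 kb to either side outside any GATA6 region (difference 34.7 points, 30.7 to 38.7). It was present in 5.42% of 54322 windows at protein-coding transcript starts. The GC box was present in 30.4% of summit windows, 3.90% of control windows and 37.4% of windows at starts. CCAAT was present in 20.1%, 23.4% and 24.6%, and TATAAA in 3%, 13.04% and 6.79%. The control windows had a median GC content of 46.3% against 55.7% in the summit windows and 58.7% at starts, and the part of base composition in these shares was not tested. The summit windows thus held the GC box somewhat less often than starts did (difference -6.96 points, -10.3 to -3.42) and the GATA core far more often. Summit windows were centred on GATA6 signal, whereas control windows lay outside any GATA6 region and starts were taken whether bound or not. The excess of the GATA core over both is therefore tied to how the windows were chosen.

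The GC box and the GATA core moved in opposite directions with accessibility. In accessible members the GC box was present in 46.6% and AGATAA in 35.6%, and in moderate members in 21.6% and 50%. The differences (moderate minus accessible) were -24.9 points for the GC box (-32.1 to -17.6) and 14.4 points for AGATAA (6.67 to 21.7). Compared with Late promoters, the members had AGATAA more often (difference 24.9 points, 18.9 to 30.4) and the GC box, CCAAT and ETS core less often (-12.02 points with -18.5 to -5.60, -11.7 points with -17.7 to -5.85, and -4.79 points with -9.04 to -1.17). Compared with active enhancers, AGATAA was about as frequent (45.9%, difference -1.06 points, -5.98 to 3.87), and the GC box more frequent (10.8%, difference 19.7 points, 15.7 to 23.6).

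**Figure D5:**
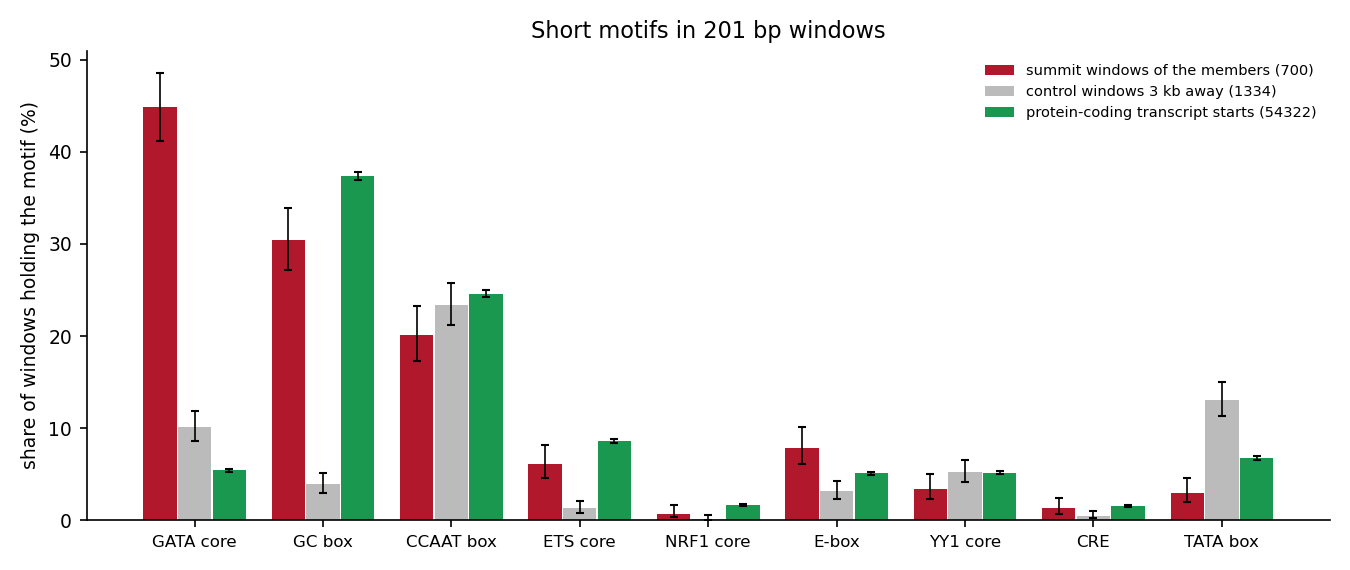
Share of windows reaching 100 bp to each side of their centre (%) holding each short motif on either strand, with 95% Wilson intervals, in the 700 summit windows of the members, 1334 control windows 3 kb away and 54322 windows at protein-coding transcript starts. The GATA core is in 44.9%, 10.1% and 5.42% of the windows, and the GC box in 30.4%, 3.90% and 37.4%.

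GATA6 binding at the members rarely belonged to the classes that responded to Oct4 knockdown. These classes come from the authors' test of GATA6 signal after 48 h of GATA6 induction with Oct4 or control siRNAs. Among all 42403 regions 6.25% were decreased and 8.57% increased. Among the members 8 were decreased (1.14%, 0.580 to 2.24) and 1 was increased (0.143%, 0.0252 to 0.805), both below these background shares. PTF promoters had 14 of 238 decreased (5.88%), a difference of -4.74 points (-8.53 to -2.15) whose direction held on only 10 of 20 chromosomes, and which was -2.08 points (-7.96 to 0.673) among regions of similar width. Late promoters and active enhancers had 0.322% and 1.25% decreased, with differences from the members of 0.821 points (-0.759 to 1.95, 6 of 20) and -0.104 points (-1.23 to 1.12, 7 of 20). The increased share was low in these sets too, at 0% in PTF promoters, 0.643% in Late promoters and 0.454% in active enhancers.

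The 9 responding members were all moderate at d0. The decreased ones included Cdh7 (a cadherin, summit 89 bp into the gene and score 10.88), Arhgef3 (a guanine nucleotide exchange factor, 19 bp into the gene and score 7.49) and Klf10 (1325 bp upstream and score 9.44). Further ones lay 1495 bp into Ybx3 with a score of 14.64, 2063 bp downstream of the start of Foxh1 (a forkhead partner of SMAD proteins) with 9.90, and 7438 bp from a start of Ercc6l2 with 9.79. The summit at Ercc6l2 was between genes, 86049 bp from the nearest protein-coding transcript start. The one at Tpd52, 566 bp into the gene, had no GATA6 motif but an OCT4:SOX2 motif of score 7.64. The last decreased member lay in an intron of Dnah2 with a score of 6.24. The increased member, 6675 bp upstream of Rab11fip5 (an effector of RAB11 in vesicle traffic), had 7 GATA6 motifs and motifs of the other 3 factors. Its width was 1231 bp.

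A member lay within 1 kb of a start of 463 of 21951 annotated protein-coding genes (2.11%). Starts of all transcripts of these genes were counted, coding or not. Lists of pluripotency genes (0 of 35), PrE genes (0 of 32) and splicing factors (0 of 51) had no member at a start. Of 55 cell cycle genes 4 had one, and of the respiratory chain and ATP synthase 3 of 75. The lists of cytosolic ribosomal proteins had 2 of 78, FGF and MAPK signalling 1 of 37, polycomb, trithorax and DNA methylation 1 of 47, nucleosome remodelling 1 of 42 and the proteasome 1 of 32. These are counts of 4 genes or fewer, the highest share being that of the cell cycle list (7.27%), and no list was tested against the share of all genes.

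The cell cycle genes were Ccnd1, Chek1, E2f2 and Cdc45. Ccnd1, which encodes the G1 cyclin D1, had an accessible member with the summit 143 bp upstream of its start (chr7:144939847-144940225), whose best GATA6 motif scored only 7.51. Chek1, a checkpoint kinase, had an accessible member 79 bp upstream with a score of 6.82, and the motif lay 411 bp from the summit. E2f2, a transcription factor of S phase genes, had a moderate member 460 bp upstream of an annotated start with a score of 13.08. Its summit was in an intron of E2f2, 7929 bp downstream of the nearest protein-coding transcript start. Cdc45, a component of the replicative helicase, had a moderate member 231 bp into the gene with 3 motifs and a best score of 12.06. Motif strength thus ranged widely among genes of the same list.

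Among the respiratory chain genes, Ndufv1, which encodes a subunit of complex I, had a moderate member 465 bp upstream of a start with a score of 9.76 and the motif 34 bp from the summit. Cycs, which encodes cytochrome c, had one 126 bp upstream of an annotated start, with a score of 13.19 and the motif 53 bp from the summit. That summit was in an intron of Cycs, 463 bp downstream of the nearest protein-coding transcript start. The ribosomal protein genes Rpl19 (107 bp upstream, score 7.86) and Rpl35 (654 bp from a start but 1235 bp from a protein-coding transcript start, score 12.07) had moderate members. Psmc6 had an accessible member 64 bp into the gene with a score of 12.68, and its motif lay 60 bp from the summit in the sequence shown above. Smarcd3, a subunit of the BAF complex, had a moderate member 68 bp upstream with a score of 11.51 and the motif 14 bp from the summit. Tet1 had a moderate member 20 bp upstream with a score of 7.17 and the motif 388 bp away. The entry for Fgfr2 came from an annotated start 13 bp from a summit at the start of Ctbp2, a transcriptional co-repressor, whereas the next Fgfr2 start was 2.86 Mb away.

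The members without a GATA6 motif (14.4% of all) were more often accessible (54.5%, 44.8 to 63.8) than the 599 with one (32.1%, 28.4 to 35.9), were narrower (median 367 against 516 bp) and had a higher median GC content (58.7% against 54.7%). In their summit windows the GC box was present in 42.6%, AGATAA in 6.93% and the ETS core in 7.92%. The 3 accessible members without a motif that lay nearest to a protein-coding start were at Churc1 and Fntb, at Ctbp2, and at Hirip3 and Ino80e, with the summit 2, 4 and 4 bp from the start. The first of these windows held a GC box, CCAAT and the ETS core, the second a GC box, and the last a GC box and TATAAA. Fntb encodes the farnesyltransferase beta subunit, Hirip3 a HIRA-interacting protein and Ino80e a subunit of the INO80 remodeller.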

How the data were processed

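MNase-seq was performed by the authors on 3 independent cultures per time point, but only the deposited table of GATA6 regions was analysed here. Per the study's methods, the authors aligned reads with bowtie2 to mm10, ran MACS2 on merged GATA6 replicates, kept peaks found in every replicate, clustered input-normalised log2 GATA6 signal by k-means, and derived PTF and SOX17 classes from peaks, accessibility from ATAC-seq and histone states from public ENCODE data. The deposited motif columns hold the score of FIMO against JASPAR matrices, without normalisation, and other deposited columns give positions, numbers of motifs and classes. The 59 deposited signal columns match no library of the series and were not used, nor were 12 columns that group regions. The table gives no counts, so no interval here takes read depth into account.

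The members and lists were chosen with earlier results of these data known. Base counting was checked against the GRCm38.p6 sequence, in which each of 15357 motif sequences had 1 score. Summits were annotated with GENCODE M21 (1 kb). Windows reached 100 bp to each side. Intervals are 95% Wilson, Newcombe or, for means, from both standard errors, and the functions were tested on simulated data. Named members were the 10 with the highest score, the 3 with most motifs, the top scorer of each accessibility class, those with an Oct4 response, those at listed genes (at most 5 a list) and the 3 accessible ones without a motif nearest to a protein-coding start. A named member at a listed gene is not reported here. Sequence in annotated UTRs was not printed. Python 3.11.15, pandas 2.3.3 and pysam were used.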

Additional observations from a re-analysis of the deposited data

How the results depend on the processing

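No paired analysis was possible because no deposited column used here belongs to a library, and for the same reason no replicate could be left out. Of 111 values recomputed, 38 moved beyond their interval. A further 4 changed sign where the reported interval excluded 0 (called reversed below), each to a value whose interval included 0. Sign changes of differences whose reported interval included 0 were not counted as reversed. Among these, the SOX17 motif difference from Late promoters was 3.70 points (-2.79 to 9.96) as reported. Within 100 bp of the summit it was -10.1 points (-15.5 to -5.04). Of 67 differences whose interval excluded 0, 56 still did. The cause was not tested for any change that follows. At 500 bp, 52.4% of members were at a start (42.7 points above active enhancers) and 360 protein-coding genes had one in place of 463, at 2 kb 75.1% and for protein-coding genes alone 57.6%. With moderate counted as open, the share was 98.7%, and the differences from PTF promoters, Late promoters (reversed) and active enhancers were -0.866, 0.965 and 2.80 points. Among summits within 1 kb of a start, 40.2% were accessible (-19.1 points against PTF promoters), and against active enhancers the GATA6 motif share differed by -6.75 points and the best score by -0.29. Above the median GC content (an alternative added after the data were seen), 51.5% were accessible, 80% had a GATA6 motif, and the difference from Late promoters was 35.4 points. Counting only best motifs within 100 bp of the summit, the shares were 63.7% for GATA6 (24.2 points above PTF promoters), 12.4% for SOX17 (-8.58 and -10.1 points against PTF and Late promoters), 15.1% for OCT4:SOX2 (-34.4 points against PTF promoters, -1.58 against Late promoters, reversed, and -10.7 against active enhancers) and 8.57% for ESRRB (-9.08, -0.753, reversed, and -10.02 points). At a limit of 25 bp 26.7% of best motifs were near the summit, and at 100 bp 74.5%. The latter was 23.4 points above PTF promoters and 2.70 points above active enhancers (-2.05 to 7.36), a change of sign whose interval included 0. Among regions with widths in the interquartile range of the members, the difference from PTF promoters was 19.6 points for the GATA6 motif, 1.53 for its score, -12.7 points for SOX17 and -2.08 points for decreased binding on Oct4 knockdown, and that from Late promoters was 11.8 points for a motif near the summit, 0.78 for the score and 0.984 points for OCT4:SOX2. The mean score of all motifs was 9.16 (0.78 above Late promoters), and in windows reaching 50 bp to each side AGATAA exceeded the control by 23.0 points.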

Other observations

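Another short motif stood out among the members without a GATA6 motif. The E-box CACGTG, the site of MYC, USF and related factors, was present in 18 of their summit windows (17.8%) and in 37 windows of members with a motif (6.18%), a difference of 11.6 points (5.02 to 20.4). This was 1 of 9 motifs examined and was singled out after its values were seen. The direction was the same at or below the median GC content of the members (14.3% against 5.37%, difference 8.91 points, 0.359 to 24.1) and above it (19.7% against 7.20%, difference 12.5 points, 3.83 to 23.9). In Late promoters the shares without and with a GATA6 motif were 4.48% and 4.52%, in PTF promoters 1.85% and 3.804%, and in active enhancers 3.88% and 3.72%. Over all GATA6 regions the shares were 3.88% and 2.50%, a smaller difference in the same direction as in the members (1.38 points, 0.824 to 2.02). Within Late promoters the direction differed with GC content (9.62% against 2.70% at or below that median, 1.22% against 7.58% above it).

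Other GATA6 regions lay near many members. In 387 of the 700 (55.3%, 51.6 to 58.9) the summit of a further region lay within 10 kb, which was a Transient region in 33.3% of the members, an Early one in 22% and a Late one in 17.4%. A further region of any cluster was found in 68.9% of PTF promoters, 63.0% of active enhancers and 51.8% of Late promoters. In PTF promoters a further Transient region was found in 52.9% (46.6 to 59.2), in active enhancers in 41.4% (38.2 to 44.7), and in Late promoters in 25.7% (21.2 to 30.9). By chromosome, 71 members lay on chromosome 11, 57 on chromosome 7 and 4 on chromosome X.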
